A study of Mus musculus with 33 samples.

Results

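The genes described here are 10 genes of prostaglandin synthesis and prostaglandin reception, chosen by name from the 31053 genes listed in each single-cell matrix. They are the cyclooxygenases Ptgs1 and Ptgs2, the terminal synthases Ptges, Ptgis and Ptgds, and the receptors Ptger1, Ptger2, Ptger3, Ptger4 and Ptgfr. They were followed across the cell classes and fibroblast states of the adult mouse colon mesenchyme. All but Ptgds were detected, with 39452 unique molecular identifiers (UMIs, 1 per captured transcript) for Ptgs2 and 59 for Ptger3. Ptgds was listed at 0 in every cell and in the empty barcodes of all 3 libraries, as were 35.2% of all listed genes in the cells. Whether its reads were lost at the counting step could not be settled, so that 0 is not read as absence.

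Prostaglandins are short-lived lipids made from arachidonic acid that act on nearby cells. A cyclooxygenase turns the fatty acid into an unstable intermediate, and a terminal synthase turns that into 1 product: prostaglandin E2 by Ptges, prostacyclin by Ptgis or prostaglandin D2 by Ptgds. The products act through G protein-coupled receptors. In the gut, prostaglandin E2 from mesenchymal cells is known for protecting the mucosa and supporting the repair of the epithelium. Ptgs1 is regarded as the steadily expressed cyclooxygenase, and Ptgs2 as the form induced by growth factors, cytokines and tissue handling.

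The data were droplet single-cell RNA libraries of colon from adult mice of both sexes. The whole mesenchyme group (1 library) was depleted of epithelium and leukocytes by sorting out cells that carry EpCAM or CD45, and its genotype is given as control. The GFP-low group (2 libraries) came from PdgfraH2BeGFP mice, a Jackson Laboratory strain whose nuclear green fluorescent protein reports the Pdgfra locus, and cells of low fluorescence were taken. No group was treated. The labels do not say whether the libraries are from different mice, so each p-value speaks of the spread among these libraries, which may be technical. Vessel, nerve and muscle cells were almost absent from the GFP-low libraries.

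The libraries held between 39190629 and 52313765 UMIs, and 4834 to 6793 cells with medians of 4429 to 7025 UMIs. Between 6 and 11 cell barcodes were shared by any pair of libraries. Cells were clustered on a random part of the genes that held none of the 10. Fibroblasts with Cd81 transcripts (Cd81-high) numbered 654 in the whole mesenchyme library and 3496 and 4561 in the GFP-low replicates 1 and 2. Fibroblasts rich in the metalloprotease gene Adamdec1 and poor in Cd81 (Adamdec1 fibroblasts) numbered 3334, 1187 and 1367. Cells resembling subepithelial telocytes, with the highest Pdgfra level, numbered 1572 in whole mesenchyme and 22 in GFP-low replicate 1. Of the markers fixed for each class, 6 or 7 of 8 were elevated in the clusters of Cd81-high fibroblasts, 7 of 7 in those of Adamdec1 fibroblasts and 7 of 7 in those of telocytes. The smaller classes came from whole mesenchyme: 799 cells of blood endothelium, 154 of smooth muscle or myofibroblasts, 87 pericytes, 65 enteric glia and 60 cells of lymphatic endothelium. The GFP-low libraries added 83 and 35 T or innate lymphoid cells and 21 and 26 B or plasma cells. Levels are UMIs of a gene scaled to 1000000 UMIs of its class (CPM), with exact Poisson intervals at the 95% level that cover counting error only.

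The sequences around a start site of the cyclooxygenase genes Ptgs2 and Ptgs1 are shown here. Both are RefSeq sequences of build GRCm38.p6, from 250 bases before to 50 after an annotated start. They are read 5′ to 3′, with every match to the searched motifs in capitals. The Ptgs1 gene is annotated from base 36216742, upstream of the window shown, and the sequence at that earlier position was not searched.
Ptgs2 promoter, chr1:150099781-150100080, plus strand: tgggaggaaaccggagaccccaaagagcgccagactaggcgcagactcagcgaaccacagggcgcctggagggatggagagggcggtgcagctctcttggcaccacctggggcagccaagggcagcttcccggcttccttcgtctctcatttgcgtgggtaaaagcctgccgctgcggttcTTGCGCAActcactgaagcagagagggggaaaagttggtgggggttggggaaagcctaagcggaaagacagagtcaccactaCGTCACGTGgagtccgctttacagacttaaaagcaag
Ptgs1 promoter, chr2:36230176-36230475, plus strand: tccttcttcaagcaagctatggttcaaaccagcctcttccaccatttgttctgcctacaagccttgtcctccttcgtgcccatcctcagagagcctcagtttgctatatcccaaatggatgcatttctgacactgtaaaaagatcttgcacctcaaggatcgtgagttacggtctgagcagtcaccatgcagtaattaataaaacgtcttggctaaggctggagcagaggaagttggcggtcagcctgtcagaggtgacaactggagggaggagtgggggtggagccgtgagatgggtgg
The motifs, searched on both strands, were the cyclic AMP response element half-site TGACG, the full element TGACGTCA, the E-box CACGTG, the C/EBP motif TTGCNNAA and the TATA box TATAAA. The Ptgs2 window held the half-site, overlapping an E-box, and a C/EBP motif, and this Ptgs1 window held none of the 5. In Ptgs2 the half-site and E-box lay 13 and 16 bases after the start, and the C/EBP motif 69 bases before it. Among 32851 promoters of this length, 20.8% held the half-site, 7.15% the E-box and 10.8% the C/EBP motif. Of the 8 promoters available for the 10 genes, 1 held the half-site and 1 the E-box (Ptgs2 in both cases), and 2 held the C/EBP motif (Ptgs2 and Ptger2). Of 14 promoters of the dissociation response list described below, 7 held the half-site, 1 the E-box and 1 the C/EBP motif. Whether any of these motifs acts on the levels described below was not tested. GC content was 59.3% in the Ptgs2 window and 50.7% in the Ptgs1 window. The promoters of Ptgis and Ptger1 were not used here.

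Across the classes of whole mesenchyme, both cyclooxygenase genes were highest in the telocytes. Ptgs2 stood there at 1040 CPM, against 713 CPM (700 to 726) in Adamdec1 fibroblasts and 305 CPM (286 to 324) in Cd81-high fibroblasts. Ptgs1 stood at 267 CPM (254 to 280) in telocytes, against 119 CPM (114 to 125) in Adamdec1 fibroblasts and 32.6 CPM (26.8 to 39.3) in Cd81-high fibroblasts. In both genes the 3 counting intervals lay apart. Telocytes were 23.1% of the cells of whole mesenchyme and held 41.9% of its Ptgs1 UMIs and 33.3% of its Ptgs2 UMIs. Ptgs1 was also high in the 22 telocytes of GFP-low replicate 1, at 287 CPM (208 to 385). Ptgs2 was not: it stood at 52.1 CPM (22.5 to 103) in those cells, where the dissociation response list summed to 11460 CPM, against 59578 CPM in the telocytes of whole mesenchyme.

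**Figure D1:**
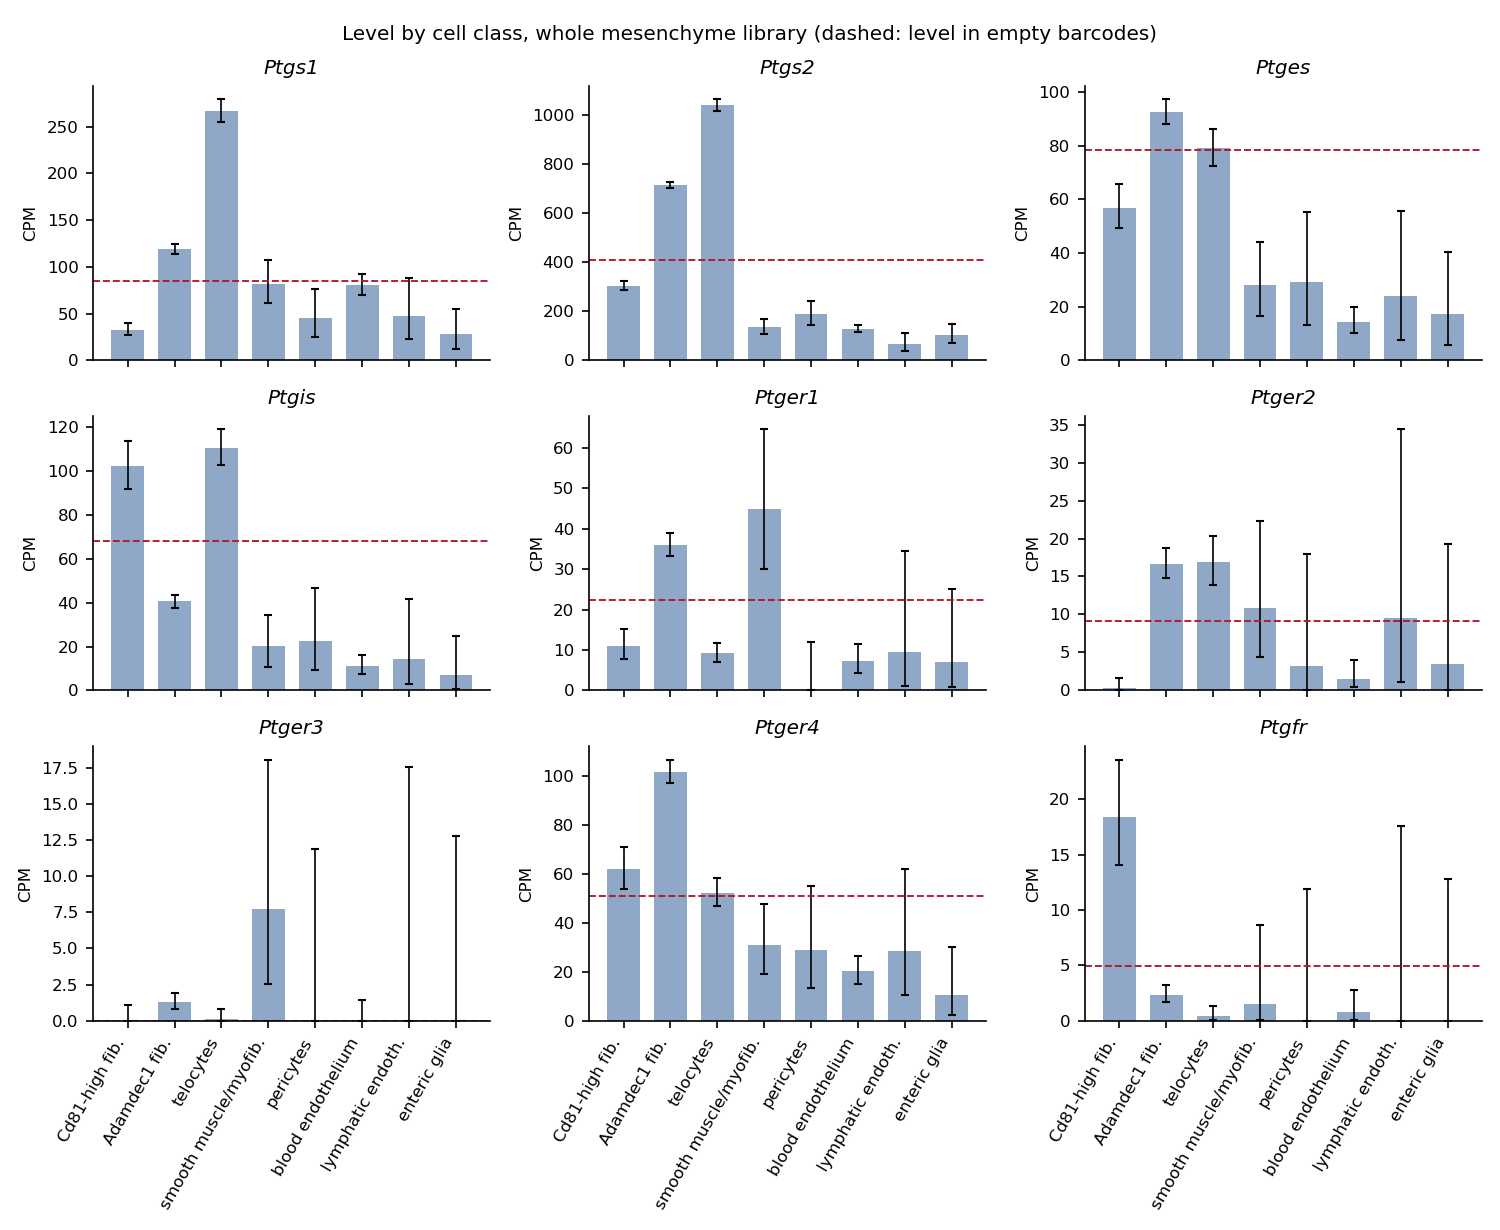
Level (CPM) of 9 detected genes in 8 cell classes of the whole mesenchyme library; bars are the summed UMIs of a class, error bars exact 95% Poisson intervals, and the dashed line is the level in barcodes of 1 to 50 UMIs. Ptgs1 and Ptgs2 are highest in telocytes, Ptgfr in Cd81-high fibroblasts at 18.4 CPM and Ptger4 in Adamdec1 fibroblasts at 102 CPM.

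Within the telocytes of whole mesenchyme, a shallow cluster of 532 cells with Nrg1, Il1rl1 and Fst among its leading genes held the most cyclooxygenase transcripts. Ptgs2 stood at 1980 CPM in it, against 850 CPM (826 to 875) in the 1040 other telocytes. Ptgs1 stood at 379 CPM (344 to 417), against 244 CPM (231 to 257). Ptgis went the other way, at 62.7 CPM (48.9 to 79.3) against 120 CPM (111 to 130). The cells of the shallow cluster held a median of 1706 UMIs and 11.8% mitochondrial UMIs, against 4956 UMIs and 3.92% in the other telocytes. The part of depth and cell quality in these differences was not tested, and with 1 library there was no test between the clusters.

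Outside the fibroblasts and telocytes, the levels have to be read beside the free RNA of the suspension. Barcodes of 1 to 50 UMIs, which hold no cell, stood at 407 CPM for Ptgs2 and 84.9 CPM for Ptgs1 in whole mesenchyme. Blood endothelium held 128 CPM (115 to 143) of Ptgs2, or 0.315 of the empty-barcode level. The same ratio was 0.251 for Adamdec1 and 0.255 for Pdgfra, which mark fibroblasts. Single endothelial cells nevertheless held up to 38 Ptgs2 UMIs, and 89.7% of the Ptgs2 UMIs of endothelium lay in 80 of its 799 cells.

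Ptgs1 in blood endothelium stood at 80.2 CPM (69.6 to 91.9), or 0.945 of the empty-barcode level, well above the ratio of the fibroblast markers. Its level differed between the endothelial clusters. The highest was in a vein-like cluster of 26 cells, in which the venous genes Selp and Ackr1 stood at 5421 and 1407 CPM. There Ptgs1 stood at 227 CPM (145 to 337), against 72.7 CPM (62.4 to 84.3) in the main endothelial cluster of 756 cells, which held 177 of the 207 endothelial UMIs. The remaining cluster of 17 cells held 142 CPM (52 to 308), an interval that overlaps both. Ptgs2 ran the other way, with 1 UMI or 9.44 CPM (0.239 to 52.6) in the vein-like cluster, against 134 CPM (119 to 149) in the main cluster. In enteric glia, lymphatic endothelium and pericytes, Ptgs1 stood at 27.7, 47.6 and 45.2 CPM and Ptgs2 at 104, 66.6 and 187 CPM, all below the empty-barcode levels.

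The comparison of the 2 fibroblast classes asked which parts of the pathway separate Cd81-high from Adamdec1 fibroblasts. Of the 10 genes, 8 passed the filter on low counts. Ptgis and Ptgfr rose in Cd81-high fibroblasts, a direction taken by 14.3% of the 6240 genes tested. Ptgs1, Ptges, Ptger1, Ptger2 and Ptger4 fell, a direction taken by 14.8%. Ptgs2 did not pass, and Ptger3 and Ptgds were not tested. The test was edgeR's quasi-likelihood test on summed counts with the library as block and Benjamini-Hochberg adjustment, and a gene was called at an adjusted p under 0.05. Ptger2 passed the low-count filter through the Adamdec1 class alone and so had to differ, and its place among the genes that fell is no support.

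Ptgs1 stood at 32.6 CPM in Cd81-high fibroblasts of whole mesenchyme and at 70.1 and 69.7 CPM in those of GFP-low replicates 1 and 2, against 119, 127 and 106 CPM in Adamdec1 fibroblasts of the same libraries. The Cd81-high values were lower in all 3 libraries and the groups did not overlap. The log2 difference was -0.94 ± 0.22 (SE, 3 libraries), with an edgeR adjusted p of 0.0116 and an adjusted p of 0.0848 without the replicate block. The difference was -1.88 in whole mesenchyme against -0.75 and -0.45 in the GFP-low replicates, and the interaction of class and sort was -1.27 ± 0.20 (edgeR adjusted p = 0.00341, a call made in 1.68% of genes). The whole mesenchyme arm of that interaction is 1 library, assumed to vary like the GFP-low replicates. With other size factors (RLE) that interaction had an adjusted p of 0.0685.

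Ptgs2 had 305, 174 and 344 CPM in Cd81-high fibroblasts of whole mesenchyme and GFP-low replicates 1 and 2, against 713, 215 and 275 CPM in Adamdec1 fibroblasts. The groups overlapped, and the direction was lower in whole mesenchyme and GFP-low replicate 1 and higher in GFP-low replicate 2. The log2 difference was -0.31 ± 0.27 (SE, edgeR adjusted p = 0.435). It was 0.15 without whole mesenchyme (edgeR adjusted p = 0.444) and -0.71 without GFP-low replicate 2 (edgeR adjusted p = 0.0282). The interaction of class and sort was -1.38 ± 0.23 (edgeR adjusted p = 0.00504, and 0.105 with RLE size factors). Whole mesenchyme is 1 library, so the sort and that library cannot be told apart.

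**Figure D2:**
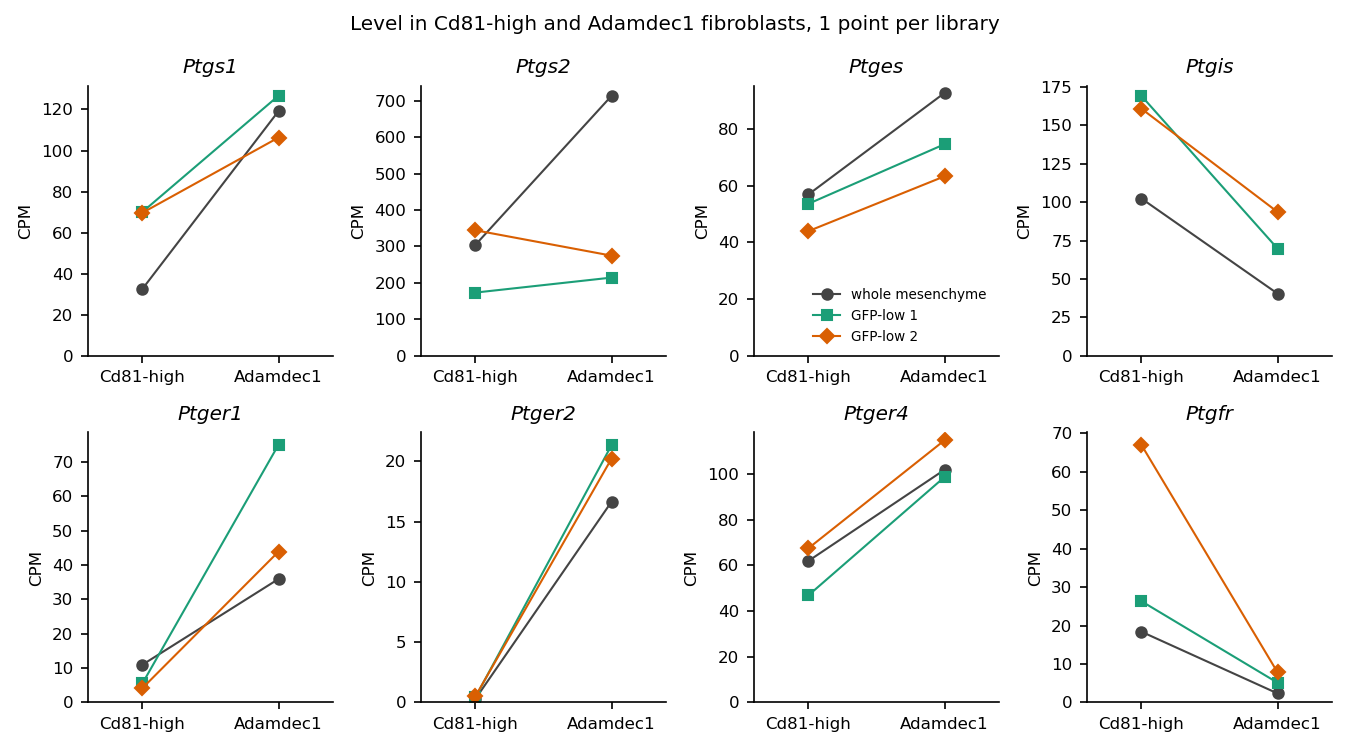
Level (CPM) of the 8 tested genes in Cd81-high and Adamdec1 fibroblasts, with 1 line per library joining the classes of that library. Ptgis and Ptgfr lie higher in Cd81-high fibroblasts in 3 of 3 libraries, Ptger1, Ptger2 and Ptger4 lower in 3 of 3, and the lines of Ptgs2 cross.

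The terminal synthases separated the classes in opposite directions. Ptges, the inducible prostaglandin E synthase, had 56.9, 53.6 and 44.0 CPM in Cd81-high fibroblasts, against 92.7, 74.7 and 63.3 CPM in Adamdec1 fibroblasts, in the order whole mesenchyme, GFP-low 1 and GFP-low 2. All 3 Cd81-high values lay below the Adamdec1 values, and the log2 difference was -0.47 ± 0.10 (SE, edgeR adjusted p = 0.00652, and 0.114 without the replicate block). Ptgis, the prostacyclin synthase, had 102, 169 and 161 CPM in Cd81-high fibroblasts, against 40.5, 69.8 and 93.6 CPM in Adamdec1 fibroblasts. The Adamdec1 levels were 0.595, 0.553 and 0.606 of the empty-barcode levels. Its values did not overlap between the classes either, and it was 2.31-fold higher in the Cd81-high class (log2 difference 1.21 ± 0.11, edgeR adjusted p = 6.32e-05, and 0.0544 without the replicate block).

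In telocytes Ptgis, but not Ptges, stood above the free RNA. In whole mesenchyme Ptgis stood at 111 CPM (103 to 119) in telocytes, close to its level in Cd81-high fibroblasts. That was 1.62 times the empty-barcode level. Ptges stood at 79.1 CPM (72.5 to 86.2) in telocytes, between its levels in the 2 fibroblast classes. Its empty-barcode level was 78.5 CPM, so the telocyte level was not above the free RNA. Blood endothelium, in which prostacyclin synthase is known from large vessels, held 11.2 CPM (7.52 to 16.1) of Ptgis, or 0.165 of the empty-barcode level and so no more than background. Ptges was likewise at 14.3 CPM (10.1 to 19.7) in blood endothelium, 0.182 of that level.

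Co-occurrence in the same cell was counted after each cell was thinned to 1000 UMIs, since deeper cells show more genes. In telocytes of whole mesenchyme, Ptgis was found in 6.23% (4.49 to 8.39%) of the 642 cells with a Ptgs2 UMI, against 13.0% (10.9 to 15.3%) of the 930 cells without. Ptgis was likewise found in 5.41% (3.29 to 8.32%) of telocytes with a Ptgs1 UMI, against 11.6% (9.88 to 13.6%) of those without. Ptges leaned the other way, at 9.19% (7.07 to 11.7%) of telocytes with Ptgs2 and 5.91% (4.49 to 7.63%) of those without, with intervals that overlap. All these telocyte shares pool the shallow cluster with the other telocytes. That cluster held more of both cyclooxygenases and less Ptgis, and thinning does not remove this mixture. Its part in the shares was not tested, so they do not show that the genes exclude each other within a cell. Unthinned, 30.4% of all telocytes held a Ptgis UMI and 24.9% a Ptges UMI. In the 65 enteric glia the thinned shares were 1.54% for Ptgis and 0% for Ptges. These stand beside the thinned telocyte shares above, not the unthinned ones. Before thinning the glia, of similar median depth (4052 UMIs against 4022 in telocytes), held 2 Ptgis and 5 Ptges UMIs.

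Cd81-high fibroblasts did not share that order for Ptgs1: Ptgis was found in 21.0% (15.9 to 26.8%) of those with a Ptgs1 UMI in GFP-low replicate 1, against 14.5% (13.3 to 15.8%) of those without. In GFP-low replicate 2 both shares were 14.8%. For Ptgs2, the fibroblast shares lay closer. Ptgis was found in 16.7% and 14.0% of Cd81-high cells with Ptgs2 in GFP-low replicates 1 and 2, against 14.7% and 15% of those without. Ptges was found in 8.29%, 9.29% and 5.68% of Adamdec1 cells with Ptgs2 in whole mesenchyme and GFP-low replicates 1 and 2, against 7.64%, 6.30% and 5.79% of those without. The exact binomial intervals of these Ptgs2 comparisons overlapped. They cover the counting of cells only, and no test over libraries was run. The Ptgs2 transcripts themselves were unevenly spread: the 10% of cells with the most held 54.7% of the Ptgs2 UMIs of telocytes in whole mesenchyme and 55.7% to 77.6% of those of Adamdec1 fibroblasts. For Ptgis in Cd81-high fibroblasts of the GFP-low replicates the same share was 37.5% and 36.2%.

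Of the receptors for prostaglandin E2, Ptger1 and Ptger4 fell in Cd81-high fibroblasts, Ptger2 was near 0 there and Ptger3 was not tested. Ptger2 encodes the EP2 receptor for prostaglandin E2, which raises cyclic AMP. It had 0.297, 0.433 and 0.508 CPM in Cd81-high fibroblasts, against 16.7, 21.3 and 20.2 CPM in Adamdec1 fibroblasts of whole mesenchyme and GFP-low replicates 1 and 2. The groups were far apart, with 26 UMIs in all Cd81-high cells and 632 in all Adamdec1 cells. The Cd81-high levels were 0.0325, 0.154 and 0.0967 of the empty-barcode levels, at or below the ratios of Adamdec1 in the same cells (0.129, 0.171 and 0.120), and are not above background, so no fold is given. Telocytes of whole mesenchyme held 16.9 CPM (13.9 to 20.3), which did not differ from the Adamdec1 fibroblasts beyond counting error.

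Ptger1 encodes the EP1 receptor, which acts through calcium. It had 11.0, 5.53 and 4.16 CPM in Cd81-high fibroblasts, against 35.9, 75.0 and 43.9 CPM in Adamdec1 fibroblasts. The groups did not overlap, and the log2 difference was -3.11 ± 0.28 (SE, edgeR adjusted p = 5.60e-05). The Cd81-high levels were 0.489, 0.455 and 0.360 of the empty-barcode levels, so that difference is taken against a class below the free RNA. The difference was smaller in whole mesenchyme, at -1.72, than in the GFP-low replicates, at -3.66 and -3.24 (interaction 1.73 ± 0.32, edgeR adjusted p = 0.00959, and 0.0939 with RLE size factors). The Cd81-high value of whole mesenchyme rests on 37 UMIs. The empty-barcode level was 22.4 CPM there, against 12.1 and 11.6 CPM in the GFP-low replicates, and its part in the interaction was not tested. Smooth muscle or myofibroblasts held 44.9 CPM (30.1 to 64.5), from 29 UMIs, and telocytes 9.21 CPM (7.04 to 11.8), 0.410 of the empty-barcode level. That muscle class also held 8596 CPM of Adamdec1, 1.20 times the empty-barcode level, and the part of free RNA in its Ptger1 value was not tested.

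Ptger4, the EP4 receptor for prostaglandin E2, had 62.0, 46.9 and 67.5 CPM in Cd81-high fibroblasts, against 102, 98.8 and 115 CPM in Adamdec1 fibroblasts. The groups did not overlap, and the log2 difference was -0.77 ± 0.10 (SE, edgeR adjusted p = 0.000484, and 0.0555 without the replicate block). It was also found outside the fibroblasts. T or innate lymphoid cells held 69.3 CPM (48.8 to 95.5) and 60.9 CPM (33.3 to 102) in the GFP-low replicates, or 2.0 and 1.09 times the empty-barcode levels. The same lymphoid cells held the fibroblast gene Adamdec1 at 2.27 and 3.30 times those levels, and the part of fibroblast RNA in their Ptger4 was not tested. Telocytes held 52.4 CPM (47.0 to 58.2), 1.02 times the empty-barcode level. Blood endothelium held 20.1 CPM (15 to 26.4), 0.393 of the empty-barcode level.

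Ptgfr, the receptor for prostaglandin F2α, rose in Cd81-high fibroblasts. It had 18.4, 26.3 and 67.0 CPM in Cd81-high fibroblasts, against 2.34, 5.12 and 7.82 CPM in Adamdec1 fibroblasts of whole mesenchyme and GFP-low replicates 1 and 2. All 3 Cd81-high values lay above all Adamdec1 values, and GFP-low replicate 2 was highest in both classes. The gene was 7.68-fold higher in the Cd81-high class (log2 difference 2.94 ± 0.16, SE, edgeR adjusted p = 4.20e-06). The Adamdec1 levels were 0.476, 0.322 and 0.173 of the empty-barcode levels, so that fold is taken against a class below the free RNA. The empty-barcode levels were 4.91, 15.9 and 45.2 CPM in the same order of libraries. Telocytes held 3 UMIs or 0.453 CPM (0.0934 to 1.32), and enteric glia, pericytes and lymphatic endothelium held none, which allows up to 10.4, 9.69 and 14.3 CPM. Cd81-high fibroblasts were 9.63% of the cells of whole mesenchyme and held 57.4% of its Ptgfr UMIs.

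Ptger3, the EP3 receptor, which lowers cyclic AMP, was near the limit of detection. Adamdec1 fibroblasts held 22, 20 and 3 UMIs in whole mesenchyme and GFP-low replicates 1 and 2, and Cd81-high fibroblasts 0, 3 and 3. Its highest level, 7.75 CPM (2.51 to 18.1) in smooth muscle or myofibroblasts, rested on 5 UMIs.

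The fibroblast states, which are clusters within each class named here by leading or marker genes, asked how the pathway varies inside a class. In the Cd81-high class there were 5 states: Ackr4 and Grem1 (2343 cells), Ifi207 and Scara5 (2147 cells), Inmt (1487 cells, 1315 of them from GFP-low replicate 2), Pi16 (1219 cells) and a shallow state (1515 cells at 0.314 of the median depth). In the Adamdec1 class there were 3: Ereg and Cxcl2 (2919 cells), Wnt4 and Nrg1 (1635 cells) and a shallow state (1334 cells at 0.403 of the median depth). Of 7 genes tested in the Cd81-high class, 6 differed between states, where 57.2% of all 5609 genes tested did. Of 8 tested in the Adamdec1 class, 6 differed, where 43.1% of 5688 genes did. States were found on other genes of the same cells, and the test was the edgeR quasi-likelihood F test with the library as block.

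**Figure D3:**
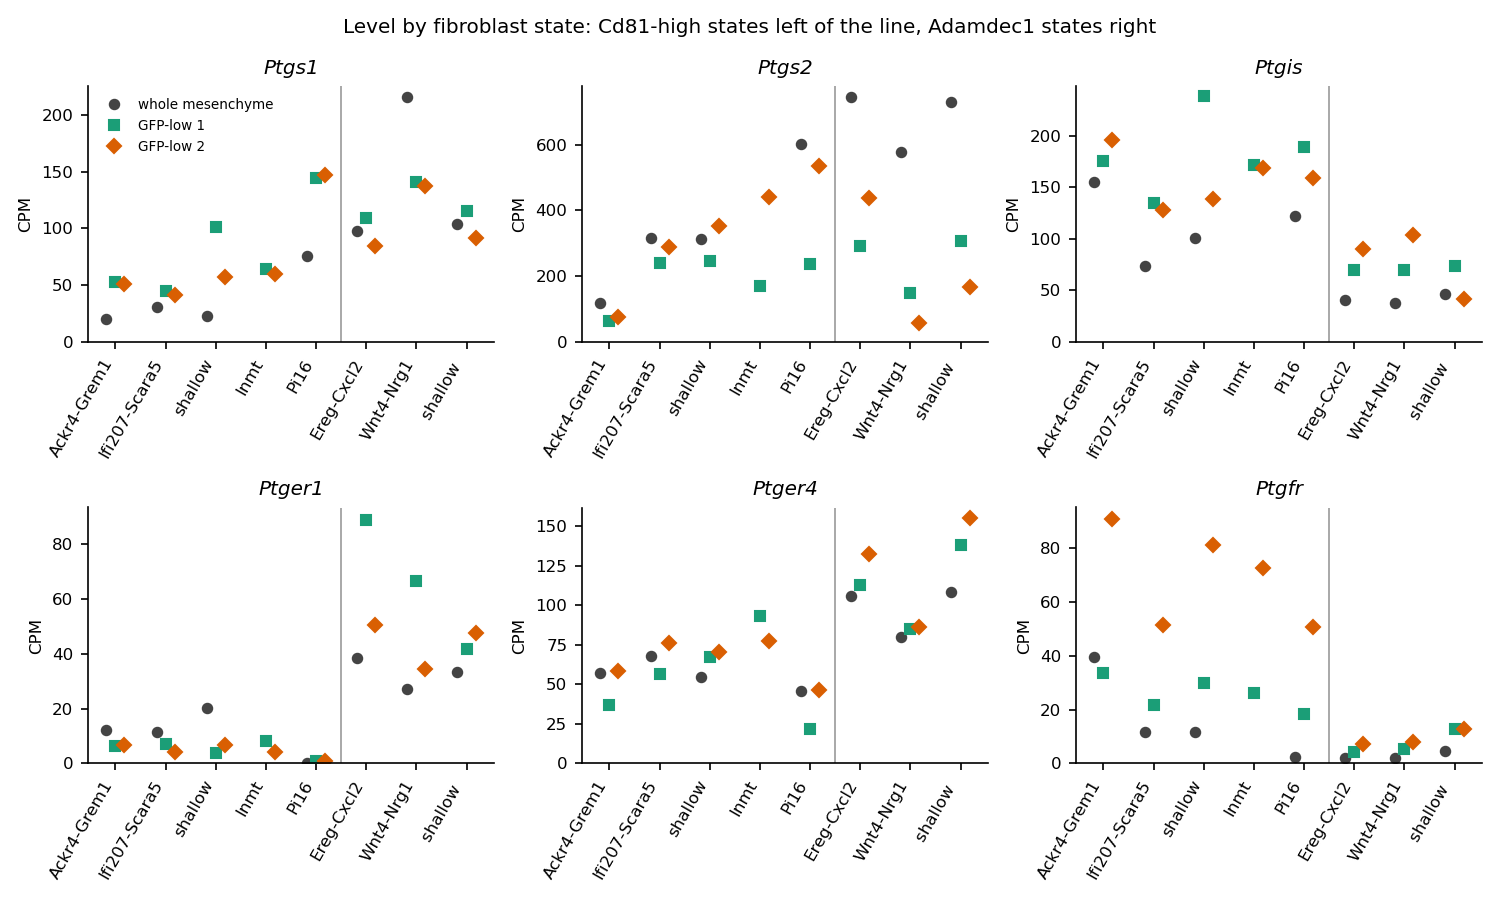
Level (CPM) of 6 genes by fibroblast state and library; Cd81-high states stand left of the vertical line and Adamdec1 states right of it. Ptgs1 is highest in the Pi16 state among Cd81-high states, Ptgs2 is lowest in the Ackr4 and Grem1 state, and Ptger1 is near 0 in the Pi16 state.

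The Pi16 state, whose marker gene Pi16 is known from adventitial fibroblasts, held the most Ptgs1 transcripts of the Cd81-high class. Ptgs1 had 75.9, 145 and 147 CPM there in whole mesenchyme and GFP-low replicates 1 and 2, 1.29 ± 0.11 above the other states (log2 and SE). In the other states Ptgs1 lay between 19.8 and 101 CPM, and in each library the Pi16 state was the highest (edgeR adjusted p over states = 5.81e-10). Ptgs2 had 602, 238 and 535 CPM in the Pi16 state, against 119, 62.4 and 75.7 CPM in the Ackr4 and Grem1 state (edgeR adjusted p over states = 4.32e-10). The Pi16 state was the highest in whole mesenchyme and GFP-low replicate 2, while in GFP-low replicate 1 the shallow state stood at 247 CPM and the Ifi207 and Scara5 state at 240 CPM. The Ackr4 and Grem1 state was the lowest in every library, at -2.10 ± 0.17 against the other states (log2 and SE). The dissociation response list summed to 39286, 31932 and 43230 CPM in the Pi16 state and to 34507, 27658 and 28966 CPM in the Ackr4 and Grem1 state, and its part in the Ptgs2 difference was not tested.

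The tested receptors were lowest in the Pi16 state in each library. Ptgfr was highest in the Ackr4 and Grem1 state, with 39.6, 33.6 and 90.6 CPM, and had 2.30, 18.3 and 50.8 CPM in the Pi16 state (edgeR adjusted p over states = 0.00011, and 0.741 without the replicate block). Within each library the Pi16 value was the lowest, but in GFP-low replicate 2 the Ifi207 and Scara5 state was close to it, at 51.6 CPM. The Pi16 state of whole mesenchyme held only 60 cells, so its Ptgfr and Ptger1 values rest on few UMIs. Ptger1 was at 0, 0.873 and 1.03 CPM in the Pi16 state, against 3.86 to 20.2 CPM in the other states (edgeR adjusted p over states = 5.78e-05). Ptger4 had 46.0, 22.1 and 46.5 CPM in the Pi16 state, again the lowest in each library, and 93.1 and 77.8 CPM in the Inmt state of the GFP-low replicates (edgeR adjusted p over states = 5.14e-06). Ptgis lay between 74.0 and 238 CPM over all states (edgeR adjusted p = 0.0263, 0.0618 by DESeq2, 0.546 without the replicate block and 0.204 without whole mesenchyme). Ptges did not pass (edgeR adjusted p = 0.0951), and did with no low-count filter (0.00912) or with GFP-low replicate 1 (0.0268) or 2 (0.00634) left out.

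In the Adamdec1 class the cyclooxygenases parted between the states. Ptgs2 had 744, 291 and 437 CPM in the Ereg and Cxcl2 state, against 579, 149 and 57.0 CPM in the Wnt4 and Nrg1 state, the lowest in each library. Ptgs1 had the opposite order: it stood at 98.1, 109 and 85.0 CPM in the Ereg and Cxcl2 state, against 216, 141 and 138 CPM in the Wnt4 and Nrg1 state. The edgeR adjusted p over states was 0.00101 for Ptgs2 (0.0631 by DESeq2, 0.566 without the replicate block) and 0.000622 for Ptgs1 (0.0696 without whole mesenchyme, 0.0725 without the replicate block). The dissociation response list also differed: it summed to 53042, 49246 and 52724 CPM in the Ereg and Cxcl2 state and to 24112, 19680 and 11075 CPM in the Wnt4 and Nrg1 state.

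Ptger2, Ptges, Ptger4 and Ptger1 also differed between the states of the Adamdec1 class. Ptger2 had 15, 14.3 and 15.1 CPM in the Ereg and Cxcl2 state, against 24.7, 26.4 and 27.5 CPM in the Wnt4 and Nrg1 state, with no overlap (edgeR adjusted p over states = 0.00354, and 0.0741 without the replicate block). Ptges had 86.4, 59.7 and 57.2 CPM in the first, against 123, 86.5 and 73.1 CPM in the second (edgeR adjusted p = 0.0169, 0.0628 by DESeq2, 0.50 without the replicate block, 0.0750 without GFP-low replicate 1 and 0.192 leaving out whole mesenchyme). Ptger4 and Ptger1 ran the other way. Ptger4 had 106, 113 and 133 CPM in the Ereg and Cxcl2 state, against 80.0, 84.9 and 86.3 CPM in the Wnt4 and Nrg1 state (edgeR adjusted p = 0.000263, and 0.0621 without the replicate block). The shallow state held the most Ptger4 in each library, at 109, 138 and 155 CPM. Ptger1 had 38.6, 88.9 and 50.5 CPM against 27.0, 66.7 and 34.4 CPM, lower in the Wnt4 and Nrg1 state in each library (edgeR adjusted p = 0.00122, and 0.261 without the replicate block). In the shallow state Ptger1 stood at 33.3, 41.8 and 47.5 CPM, the lowest of the states in GFP-low replicate 1. Ptgis and Ptgfr did not pass, with edgeR adjusted p of 0.632 and 0.127.

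Ptgs2 was followed against the dissociation response list, 16 immediate early and heat shock genes such as Fos, Egr1 and Hspa1a that are known to rise while tissue is digested. Cells of each class and library were ranked by the summed list and divided into 3 equal groups. In Adamdec1 fibroblasts of whole mesenchyme Ptgs2 stood at 489, 797 and 835 CPM from the lowest to the highest group. The GFP-low libraries gave 57.3, 274 and 316 CPM (replicate 1) and 31.2, 312 and 424 CPM (replicate 2). In Cd81-high fibroblasts the whole mesenchyme gave 157, 296 and 449 CPM, and the GFP-low libraries 62.2, 208 and 253 CPM (replicate 1) and 215, 391 and 398 CPM (replicate 2).

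Ptgs2 was thus higher in the group with the most of the list than in that with the least in each of these 6 sets of cells. The same held in telocytes of whole mesenchyme, where it stood at 718, 1169 and 1200 CPM. In the group with the least of the list, Adamdec1 fibroblasts of whole mesenchyme stood above Cd81-high fibroblasts, while in both GFP-low libraries they stood below them. The list itself summed there to 25187 CPM in Adamdec1 and 24498 CPM in Cd81-high fibroblasts of whole mesenchyme. In GFP-low replicate 1 it summed to 8420 against 15952 CPM, and in replicate 2 to 3736 against 21190 CPM. In the GFP-low libraries these groups thus set unlike levels of the list side by side. Ptgs1 ran against the list: it stood at 140, 115 and 104 CPM in Adamdec1 fibroblasts of whole mesenchyme and at 316, 248 and 241 CPM in telocytes. Ptger4 was higher in the group with the most of the list than in that with the least in both fibroblast classes of every library. In Adamdec1 fibroblasts it stood at 86.6, 105 and 113 CPM in whole mesenchyme and 90.4, 110 and 137 CPM in GFP-low replicate 2. In Cd81-high fibroblasts of whole mesenchyme it stood at 50.9, 57.1 and 77.1 CPM. Telocytes showed no such rise, at 52.2, 53.7 and 51.3 CPM. Between the classes, 6 of the 16 list genes rose in Cd81-high fibroblasts (Fos, Fosb, Ier2, Atf3, Dusp1 and Nr4a1) and none fell, beside 14.3% and 14.8% of all genes tested, with a median log2 difference of 0.39. Jun, Junb, Jund, Egr1, Ier3, Zfp36, Hspa1a, Hspa1b, Btg2 and Socs3 did not pass. The part of tissue digestion in the Ptgs2 levels was not tested.

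**Figure D4:**
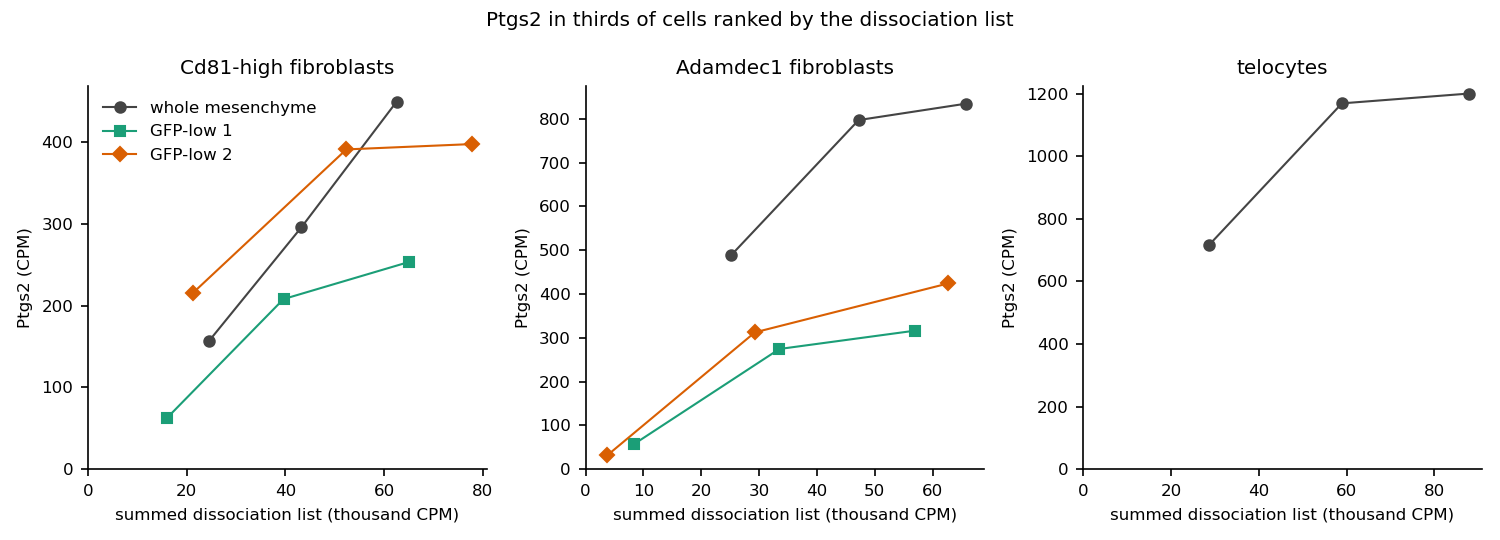
Ptgs2 level (CPM) against the summed level of the dissociation response list (in 1000 CPM) in 3 equal groups of cells ranked by that list, for Cd81-high fibroblasts, Adamdec1 fibroblasts and telocytes, with 1 line per library. Ptgs2 lies higher in the group with the most of the list in all lines, for example at 424 CPM against 31.2 CPM in Adamdec1 fibroblasts of GFP-low replicate 2.

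Prostaglandin synthesis was read from a list of 16 names, of which Prxl2b is another name of Fam213b and 11 were tested between the fibroblast classes. In Cd81-high fibroblasts 2 rose and 5 fell, beside 14.3% higher and 14.8% lower among all genes tested, with a median log2 difference of -0.31, beside 0.00267 over all genes tested. Those counts include Ptgis, Ptgs1 and Ptges, described above. Of the other genes Pla2g2e rose, Pla2g4a, Akr1b3 and Fam213b fell, and Ptges2, Ptges3 and Cbr1 did not pass. Pla2g4a, the cytosolic phospholipase that frees arachidonic acid, fell with Ptgs1: it had 55.5, 63.3 and 65.4 CPM in Cd81-high fibroblasts, against 127, 135 and 107 CPM in Adamdec1 fibroblasts (log2 difference -0.90 ± 0.13, edgeR adjusted p = 0.000808). It stood at 184 CPM (174 to 195) in telocytes of whole mesenchyme. Akr1b3, an aldose reductase that can make prostaglandin F2α, had 75.3, 78.1 and 51.3 CPM in Cd81-high fibroblasts, against 180, 224 and 186 CPM in Adamdec1 fibroblasts (log2 difference -1.47 ± 0.11, edgeR adjusted p = 1.89e-05). Its direction was thus opposite to that of the receptor Ptgfr.

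Pla2g2e, a secreted phospholipase, rose at a log2 difference of 1.87 ± 0.29 (edgeR adjusted p = 0.00139), with 16.9, 16.3 and 9.37 CPM in Cd81-high fibroblasts against 2.16, 5.12 and 4.83 CPM in Adamdec1 fibroblasts. Fam213b, a prostamide and prostaglandin F synthase, fell at -0.65 ± 0.10 (edgeR adjusted p = 0.00162, and 0.132 with cells thinned to 1000 UMIs). Ptges3, the cytosolic prostaglandin E synthase and cochaperone, had 158, 139 and 171 CPM in Cd81-high fibroblasts, against 145, 155 and 171 CPM in Adamdec1 fibroblasts, and did not pass, nor did Cbr1, a carbonyl reductase, at a log2 difference of 0.12 (edgeR adjusted p = 0.373). Hpgds and Tbxas1, the synthases of prostaglandin D2 and thromboxane, stayed under 1 CPM in both fibroblast classes.

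Breakdown and transport were divided between cell types. Of 6 genes on that list, 2 rose and 1 fell in Cd81-high fibroblasts, beside 14.3% higher and 14.8% lower among all genes tested, with a median log2 difference of 0.03. Hpgd, the dehydrogenase that inactivates prostaglandins, had 241, 253 and 204 CPM in Cd81-high fibroblasts, against 76.3, 135 and 153 CPM in Adamdec1 fibroblasts (log2 difference 1.07 ± 0.18, edgeR adjusted p = 0.00224). Telocytes held 239 CPM (228 to 251) of it. Ptgr1, which acts after it, rose by 0.36 ± 0.11 (edgeR adjusted p = 0.0404), a call lost under 7 of the alternatives, among them DESeq2 (adjusted p = 0.115).

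Slco2a1, the prostaglandin uptake transporter, belonged to blood endothelium, at 925 CPM (888 to 963) or 17.6 times the empty-barcode level. In the vein-like cluster it stood at 2314 CPM (2033 to 2622), against 880 CPM (843 to 918) in the main endothelial cluster. Cd81-high fibroblasts held 2.08, 1.35 and 1.11 CPM of it, against 11.0, 4.24 and 7.36 CPM in Adamdec1 fibroblasts (log2 difference -2.18 ± 0.25, edgeR adjusted p = 0.000278). Those fibroblast levels were 0.0395 to 1.4 times the empty-barcode levels. The exporter Abcc4 was also highest in endothelium, at 62.7 CPM (53.4 to 73.2).

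Of 10 genes on the prostanoid receptor list 7 were tested, of which 3 rose and 4 fell in Cd81-high fibroblasts, beside 14.3% higher and 14.8% lower among all genes tested, with a median log2 difference of -0.77. Ptgfr, Ptger1, Ptger2 and Ptger4, described above, are among them. The 4 that fell and the median include Ptger2, which passed the low-count filter through the Adamdec1 class alone and had to differ. Ptgir, the prostacyclin receptor, rose together with the synthase Ptgis: it had 23.7, 21.2 and 20.7 CPM in Cd81-high fibroblasts, against 5.67, 5.62 and 6.90 CPM in Adamdec1 fibroblasts, with no overlap between the groups (log2 difference 1.93 ± 0.13, edgeR adjusted p = 1.09e-05). Its highest level was 58.1 CPM (34.5 to 91.9) in pericytes. Tbxa2r, the thromboxane receptor, fell at -1.26 ± 0.20 (edgeR adjusted p = 0.00141, and 0.0960 without the replicate block) and stood at 34.9 CPM (28.0 to 42.8) in blood endothelium. Ptgfrn, a membrane protein named as a regulator of the prostaglandin F receptor, had 208, 183 and 152 CPM in Cd81-high fibroblasts, against 152, 137 and 151 CPM in Adamdec1 fibroblasts (log2 difference 0.38 ± 0.10, edgeR adjusted p = 0.0228, and 0.193 without GFP-low replicate 1).

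**Figure D5:**
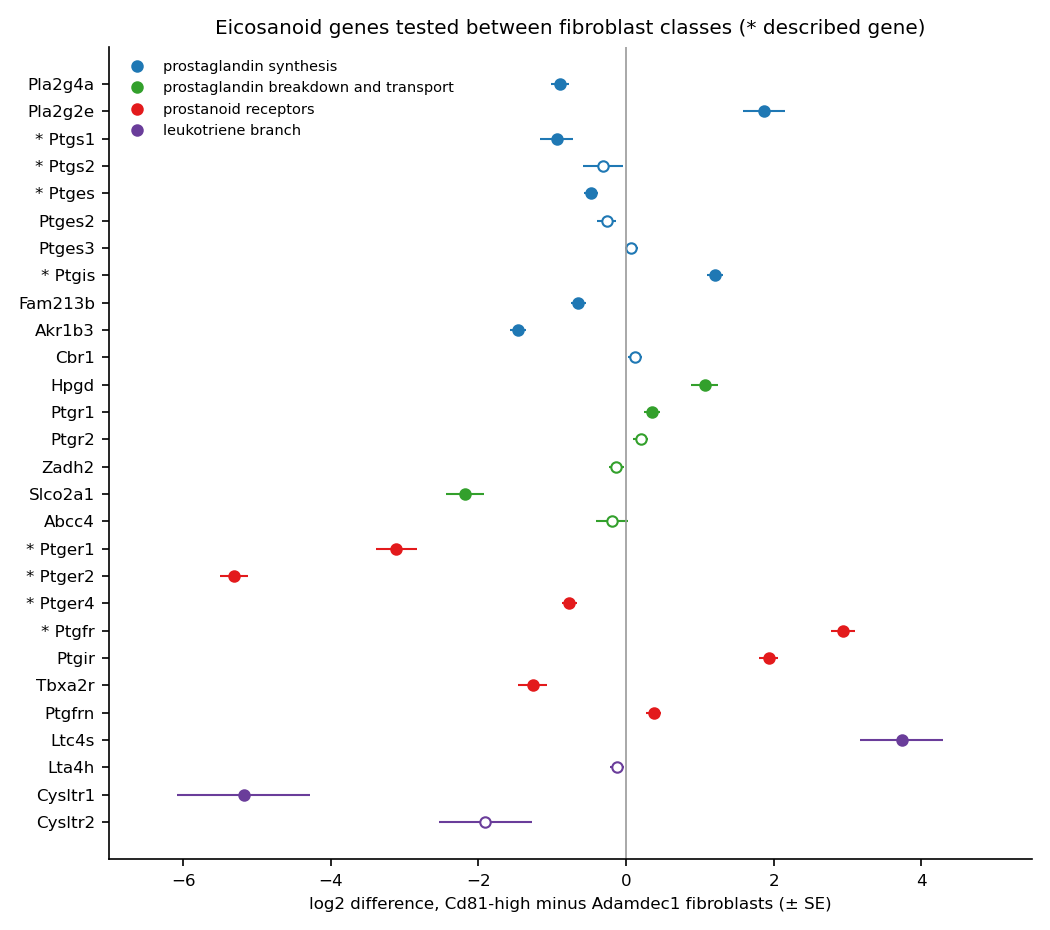
Log2 difference between Cd81-high and Adamdec1 fibroblasts (± SE, 3 libraries) for the tested genes of 4 eicosanoid lists; filled points passed at an edgeR adjusted p under 0.05, open points did not, and an asterisk marks the genes described first. Among the receptors Ptger1 lies at -3.11, Ptger4 at -0.77 and Ptgfr at 2.94, and Ptger2 is plotted against a class near 0.

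The leukotriene branch, which starts from the same fatty acid, was read from 9 genes, of which 4 were tested, 1 rose and 1 fell in Cd81-high fibroblasts, beside 14.3% higher and 14.8% lower among all genes tested, with a median log2 difference of -1.01. Both called genes passed the low-count filter only through the class in which they are high and so had to differ. Cysltr2, with 15 UMIs in Cd81-high and 36 in Adamdec1 fibroblasts, also passed that filter through the Adamdec1 class alone. It was not called (edgeR adjusted p = 0.0536). The median takes in these genes and is no support. Lta4h, the leukotriene A4 hydrolase, had 23.4, 31.1 and 17.6 CPM in Cd81-high fibroblasts, against 23.9, 36.8 and 22.0 CPM in Adamdec1 fibroblasts, and did not pass (edgeR adjusted p = 0.398). Alox5, the first enzyme of the branch, had 0, 0 and 2 UMIs in Cd81-high fibroblasts of whole mesenchyme and GFP-low replicates 1 and 2, and none in Adamdec1 fibroblasts. Ltc4s, the leukotriene C4 synthase, had 72 UMIs in Cd81-high fibroblasts against 7 in Adamdec1 fibroblasts and was highest in lymphatic endothelium, at 57.1 CPM (29.5 to 99.7). Cysltr1, a cysteinyl leukotriene receptor, had 1 UMI in Cd81-high fibroblasts against 51 in Adamdec1 fibroblasts and stood at 102 CPM (89.9 to 115) in blood endothelium and 29.7 CPM (25.7 to 34.2) in telocytes. Ltb4r1, a leukotriene B4 receptor of leukocytes, stood at 61.8 CPM (42.5 to 86.8) and 30.4 CPM (12.2 to 62.7) in T or innate lymphoid cells of the GFP-low replicates, and Alox5ap at 95.4 CPM (57.4 to 149) in B or plasma cells of GFP-low replicate 1.

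Likeness to other genes was measured as Pearson's r of log2(CPM + 1) over 38 sums of library and cluster, among 7477 genes that reached 50 CPM in a sum. These sums share libraries and differ in depth, so r is a description. The genes most like Ptger2 were Enho (r = 0.925), Agt (0.921) and Adamdec1 (0.908). Those most like Ptgfr were C7 (0.895), Inmt (0.893) and Fmo2 (0.889), and those most like Ptgis were Lum (0.885), Pcsk5 (0.881) and Ms4a4d (0.872). Ptger4 was most like Man2a2 (0.927), Robo2 (0.882) and Cdk14 (0.871), and Ptges most like Clmp (0.861), Ghr (0.834) and Col6a2 (0.823).

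The remaining patterns had no match as close. Ptger1 was most like Tmem176a (0.819), Tmem176b (0.794) and Hpse (0.730). Ptgs2 was most like Arrdc3 (0.774), Irs2 (0.760) and Hk2 (0.718), and Ptgs1 most like Thbd (0.740), Nkx2-3 (0.734) and Akap7 (0.733). No gene of the dissociation response list was among the 3 most like Ptgs2 over these sums.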

How the data were processed

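Each library was deposited as UMI counts per gene and barcode, before cell calling; Cell Ranger 3.0.2 and the mm10 genome are named in the submitters' processing notes, and strand handling is not given in the sources used here, so reads of overlapping genes cannot be told apart. A result that needs a withheld item is not reported here. All values are whole numbers. Bulk RNA and chromatin samples of the series were not used here.

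Barcodes with at least 1000 UMIs, 500 genes and at most 20% mitochondrial UMIs were kept. Clustering used 2000 variable genes of a random 15567 genes (30 principal components, 15 neighbours within each library and mutual nearest neighbours between libraries, Leiden resolution 1; scanpy 1.11.5, leidenalg 0.10.2). The remaining 15486 genes, which hold all described genes and lists, were tested. Clusters were named by markers; names mean resemblance, 1 cluster stayed unnamed, and the B or plasma cell cluster also held the macrophage gene Lyz2. Scrublet marked 8 cells in all, so doublets were in effect not removed. Stress or immune genes (Saa3, Cxcl2, Ifi207) led several fibroblast clusters.

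Counts were summed per library and class or state (at least 20 cells) and tested by quasi-likelihood (edgeR 4.0.16, R 4.3.3) after the filterByExpr filter and TMM scaling, with Benjamini-Hochberg adjustment over all genes tested. The library was the block, since both classes of a library share its mouse tissue and preparation. In simulated counts for the class comparison, with 6148 genes tested, 90.8% of tested genes changed 2-fold and 97.9% of those changed 4-fold were recovered, with 12 false calls. Counts of GFP-low replicates 1 and 2 in Cd81-high fibroblasts differed by more than counting noise (over 13855 genes, chi-square was 179 times its degrees of freedom). Alternatives were DESeq2 1.42.0, RLE factors, no low-count filter, no block, each library left out, and for the class comparison other clusterings, a marker gate, thinning, a stricter cell filter and removal of high doublet scores. The genes, lists and tests were chosen with earlier results of these data known. All 10 genes are described, and genes of the other lists are named where they passed the class test or reached 50 CPM in a class. Alox5, Lta4h, Cysltr2, Ptges2, Hpgds and Tbxas1 were named after their values were seen. Matching between libraries was added because clusters otherwise split by library.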

Additional observations from a re-analysis of the deposited data

Results flagged for a closer look

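The difference between Cd81-high and Adamdec1 fibroblasts in whole mesenchyme differed from that in the GFP-low libraries for 3 of the 8 tested genes among the 10, by the test of the interaction of class and sort, a call made for 1.68% of all genes tested. The interaction was -1.27 (log2) for Ptgs1, -1.38 for Ptgs2 and 1.73 for Ptger1. Ptgs1 and Ptgs2 were thus lower in Cd81-high relative to Adamdec1 fibroblasts in whole mesenchyme than in GFP-low cells, and Ptger1 less low. The test takes its spread from the GFP-low replicates, and whole mesenchyme is 1 library. With RLE size factors the adjusted p of the 3 genes lay between 0.0685 and 0.105.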

How the results depend on the processing

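Class comparison: of 120 values of the 8 tested genes under 15 alternatives, 114 kept their direction and side of the threshold. The 114 include all 15 values of Ptger2, which had to differ. The 4 calls lost (Ptgs1, Ptges, Ptgis and Ptger4) were lost without the replicate block. The reversal was Ptgs2 without whole mesenchyme (0.15); it passed at -0.71 when GFP-low replicate 2 was left out, and the cause of each change was not tested. Of the genes called, 890 were higher and 926 lower. Without the replicate block there were 376 and 425, and with cells thinned to 1000 UMIs 527 and 490. With one library left out they lay between 660 and 1154 higher and between 665 and 1079 lower. For states, 3208 genes were called in the Cd81-high class (1321 without the replicate block, 2269 to 3043 with one library left out) and 2451 in the Adamdec1 class (699 without the replicate block, 1298 to 2137 with one library left out). The interaction of class and sort called 105 genes, 8 with RLE factors and 250 without a low-count filter, where Ptgfr changed sign at -0.038 and did not pass. The highest class in whole mesenchyme was the same for 7 to 8 of the 9 detected genes under thinning, doublet removal and the marker gate; Ptger1 and Ptger2 moved. Ptger3 is limited by depth.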
